A study of Mus musculus with 4 samples.

Results

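Extracts of mouse middle ear, 8 in all, were examined for transcripts of 8 genes that mark regions of the forebrain: Tbr1, Neurod6, Emx1, Emx2, Lhx2, Ppp1r1b, Drd1 and Drd2. The genes were chosen by name, to see whether the nervous tissue in these extracts includes forebrain. Every probe whose RefSeq accession belongs to one of them was taken, which gave 9 probes for 8 genes, out of 39429 probes and 20971 named genes on the array. Tbr1 had 2 probes and each of the other genes had 1. Male BALB/c mice aged 6 to 10 weeks inhaled diesel exhaust particles (DEPs), and their middle ears were compared with control ears on 4 two-colour arrays of 1 slide. On each array the DEP extract carried the red dye Cy5 and the control extract the green dye Cy3. Inhalation lasted 1 h daily on days 1 to 5, and the animals were killed on day 14. The study used 9 mice in all, the number behind each extract is not given in the sources used here, and nothing more is said of what the control mice received. The dyes were not swapped, so dye and exposure cannot be told apart. The channels were assigned by the source names in the sample labels, because the same labels list both treatments under Cy5 and none under Cy3.

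The forebrain arises from the front of the neural tube and forms the cerebral cortex, the hippocampus, the striatum and the diencephalon. Its regions are laid out by transcription factors such as the homeobox proteins Emx1, Emx2 and Lhx2, and cortical excitatory neurons then keep factors such as Tbr1 and Neurod6 as they mature. The medium spiny neurons of the striatum are known for the dopamine receptors Drd1 and Drd2 and for Ppp1r1b (DARPP-32), a phosphatase inhibitor that acts downstream of them. None of these genes belongs to the forebrain alone. Tbr1 is also found in the cerebellar nuclei, Emx2 in the developing inner ear, Lhx2 in hair follicle stem cells, Ppp1r1b in kidney tubules and choroid plexus, and Drd2 in the pituitary.

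The promoters of Tbr1 and Neurod6 are shown because these genes shared a pattern of detection over the extracts, and that of Emx1 is shown for contrast. Each is the 250 bases before a transcript start that the table lists, from RefSeq on build GRCm38.p6, written 5′ to 3′ on the strand of the gene with CpG dinucleotides in capitals. The windows are chr2:61804203-61804452 on the plus strand for Tbr1, chr6:55681264-55681513 on the minus strand for Neurod6 and chr6:85187681-85187930 on the plus strand for Emx1. The Tbr1 start used here lies inside the annotated gene, whose first base is further upstream, and windows of other starts were not analysed here.
Tbr1: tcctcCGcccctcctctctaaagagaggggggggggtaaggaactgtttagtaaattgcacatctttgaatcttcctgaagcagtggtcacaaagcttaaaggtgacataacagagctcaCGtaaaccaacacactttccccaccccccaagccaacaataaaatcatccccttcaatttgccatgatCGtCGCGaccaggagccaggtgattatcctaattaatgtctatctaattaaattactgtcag
Neurod6: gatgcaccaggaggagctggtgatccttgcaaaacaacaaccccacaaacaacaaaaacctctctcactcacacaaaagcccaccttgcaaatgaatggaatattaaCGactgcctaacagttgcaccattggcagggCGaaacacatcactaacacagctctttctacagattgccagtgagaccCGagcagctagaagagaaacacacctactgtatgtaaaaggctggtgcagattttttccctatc
Emx1: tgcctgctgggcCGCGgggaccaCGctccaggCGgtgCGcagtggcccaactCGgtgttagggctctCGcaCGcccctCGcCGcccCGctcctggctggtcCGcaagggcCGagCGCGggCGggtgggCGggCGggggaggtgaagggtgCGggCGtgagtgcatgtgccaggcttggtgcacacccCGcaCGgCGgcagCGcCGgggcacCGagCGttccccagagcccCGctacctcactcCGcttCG
The Tbr1 window held 5 CpG dinucleotides and the Neurod6 window 3, whereas the Emx1 window held 30. Over all 32851 promoters in the table the median was 6, and 49.6% held at most 5. The share of G and C was 45.2% for Tbr1, 46.0% for Neurod6 and 75.6% for Emx1, against a median of 52.4%. Emx2, with 24 CpG dinucleotides, and Lhx2, with 25 and 24 at its 2 starts, lay near Emx1, while Drd2 held 15 and the 2 starts of Drd1 held 15 and 5. No window of these 7 genes held CAGATG, an E-box that NeuroD factors bind, AGGTGTGA, a T-box motif, or TATAAA, the TATA box, on either strand. Over all promoters CAGATG occurred in 14.4%, AGGTGTGA in 1.12% and TATAAA in 12.4%.

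Detection was read from the image software's flag for a signal well above background. Of the 9 marker probes, 2 were well above background in both channels of all 4 arrays, those of Lhx2 and Ppp1r1b, whereas 56.8% of all probes on the array were. A further 2 were not well above background in any extract, as were 26% of all probes, and 5 were so in 1 or 2 extracts. Over 72 readings, 9 probes in 8 extracts, 23 were well above background. Lhx2 and Ppp1r1b gave 16 of these, and the remaining 7 probes reached that level in 7 of 56 readings (12.5%). The array does not count molecules, so a reading below this level does not show that the transcript is absent, and the level depends on the extract. By a looser flag, for positive and significant signal, the brighter Tbr1 probe and the Drd2 probe were detected in all 8 extracts. The lowest signal that was well above background ranged from 15.7 to 31.1 over the DEP extracts and from 20.8 to 36.5 over the control extracts. Between 65.4% and 68.9% of all probes were well above background in DEP extracts, and between 59.2% and 68.0% in control extracts. By extract, the marker probes that were well above background numbered 2, 2, 5 and 3 for DEP on arrays 1 to 4, and 4, 2, 3 and 2 for control.

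**Figure D1:**
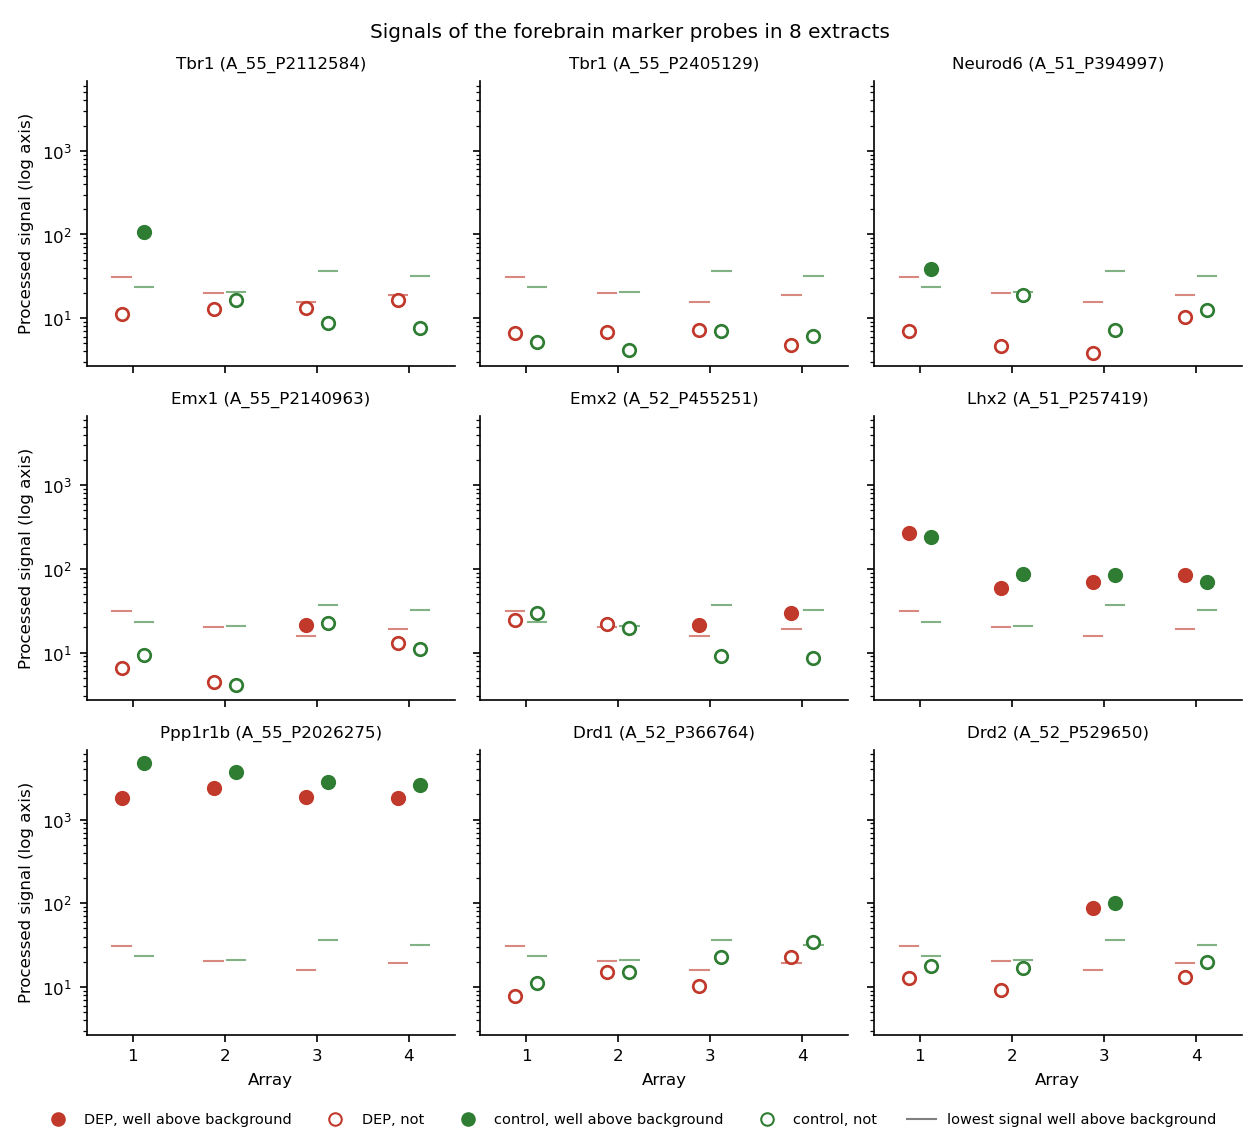
Processed signal (log axis) of each marker probe in the DEP extract (red) and the control extract (green) of each of 4 arrays, 1 panel per probe. Filled points were well above background and short lines give the lowest such signal of any probe in that channel; Ppp1r1b and Lhx2 are filled in all 8 extracts, and Tbr1 and Neurod6 in the control extract of array 1 alone.

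Tbr1 is a T-box factor of deep-layer cortical neurons. The processed signal of its brighter probe (A_55_P2112584) was 108 in the control extract of array 1, well above background, and 16.3, 8.71 and 7.64 in the control extracts of arrays 2, 3 and 4. In the DEP extracts it was 11.2, 12.8, 13.3 and 16.6 on arrays 1 to 4. A single extract therefore stood out, and the other 7 were not well above background and overlapped between groups. The other Tbr1 probe (A_55_P2405129) was not well above background anywhere, with signals from 4.78 to 7.16 in the DEP extracts and from 4.13 to 7.04 in the control extracts, so only 1 of the 2 probes detected the gene in the control extract of array 1.

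Neurod6 is a basic helix-loop-helix factor of cortical and hippocampal pyramidal neurons. Its signal (A_51_P394997) was 38.5, 19.1, 7.19 and 12.4 in the control extracts of arrays 1 to 4, of which the first alone was well above background. In the DEP extracts it was 7.01, 4.59, 3.82 and 10.3. The highest DEP reading lay above the lowest control reading, so the groups overlapped. Tbr1 and Neurod6 thus had the same pattern of detection over the 8 extracts, which 308 of the 39429 probes (0.781%) shared. Other named genes with the pattern included Asic4 at 153, Lamp5 at 117, Cryba2 at 88.6 and Hapln2 at 80.4 in that extract, where Lamp5 encodes a membrane protein of cortical neurons and Hapln2 a protein of the matrix at nodes of Ranvier. This search for shared patterns was chosen after the signals were seen.

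Emx1 is a homeobox factor of the dorsal telencephalon, from which cortex and hippocampus form. Its signal (A_55_P2140963) was 6.57, 4.44, 21.4 and 12.9 in the DEP extracts and 9.29, 4.08, 22.7 and 10.9 in the control extracts of arrays 1 to 4. Both channels were highest on array 3, where the DEP reading was well above background and the brighter control reading was not. The groups overlapped throughout, and 410 probes were detected in the DEP extract of array 3 alone.

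Emx2, the paralogue of Emx1, also patterns the cortex. Its signal (A_52_P455251) was 24.6, 21.7, 21.1 and 30.1 in the DEP extracts and 29.5, 19.8, 9.17 and 8.53 in the control extracts. The DEP readings of arrays 3 and 4 were well above background, and no control reading was. The control extract of array 1 nevertheless exceeded 3 of the 4 DEP extracts, so the groups overlapped. Detection in the DEP extracts of arrays 3 and 4 alone was shared by 75 probes, among them those of the kallikreins Klk1b26 at 144 and Klk1b22 at 106 in the DEP extract of array 4.

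Lhx2 is a LIM-homeobox factor that selects cortical identity in the embryo. Its signal (A_51_P257419) was well above background in all 8 extracts, at 267, 59.3, 69.9 and 85.5 in the DEP extracts and 238, 86.9, 85.4 and 69.9 in the control extracts. Array 1 held the highest reading of each group, and the other 6 extracts lay between 59.3 and 86.9 with the groups overlapping. The hair follicle list gave Krt15, a keratin of basal and follicle stem cells, at 34189 in the DEP extract of array 1 and at 4371 to 10809 in the other DEP extracts. In the control extracts Krt15 was at 6059, 7640.1, 6420.2 and 7858 on arrays 1 to 4, so that array 1, which had the highest Lhx2 signal of the group, had the lowest of Krt15. Lgr5, a follicle stem cell receptor, went the other way in both groups. On array 1 it was lowest of the DEP extracts, at 472, and highest of the control extracts, at 562. Krt25, Krt71 and Padi3 were also highest in that control extract, whereas Tchh, Krt27, Krt28, Krt33b and Krt35 were not. Of 10 hair follicle genes, 4, 7, 7 and 6 were well above background in the DEP extracts of arrays 1 to 4, and 7, 6, 3 and 4 in the control extracts. Their summed signal ranged from 5169 to 35574 over the DEP extracts and from 6942 to 8525 over the control extracts. Krt15 made up most of each sum. Krt35, a hair cortex keratin, was not well above background anywhere. The part of follicle RNA in the Lhx2 signal was not tested.

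Ppp1r1b, the phosphatase inhibitor downstream of dopamine receptors, was well above background in all 8 extracts. Its signal (A_55_P2026275) was 1832, 2376, 1857 and 1812 in the DEP extracts and 4716, 3738, 2789 and 2595 in the control extracts of arrays 1 to 4. The lowest control extract exceeded the highest DEP extract. The share of all probes with groups so separated was not counted here, so this does not set Ppp1r1b apart from other probes. The geometric means were 1956 and 3361.

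Drd1, the receptor of striatal neurons of the direct pathway, was not well above background in any extract. Its signal (A_52_P366764) was 7.84, 15.2, 10.3 and 22.8 in the DEP extracts and 11.0, 15.0, 23.0 and 34.4 in the control extracts. The groups overlapped. Of 14 genes in a list for striatum and subpallium, which also holds the homeobox factors that pattern this region in the embryo, 10 were well above background in both channels of every array, where 68.1% of all named genes were, and 1 was in no extract, Gsx2, a homeobox factor of the embryonic striatal primordium. Penk, a neuropeptide precursor that many other cells make as well, lay between 2897 and 5386 in the DEP extracts and between 2096 and 6407 in the control extracts. Tac1, another such precursor, was at 143 in the DEP extract of array 1 and at 1166 to 1993 in the other 7 extracts.

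Drd2, the receptor of striatal neurons of the indirect pathway, was well above background on array 3 alone, and there in both channels. Its signal (A_52_P529650) was 13.0, 9.07, 88.5 and 13.2 in the DEP extracts and 17.9, 16.7, 101.1 and 19.9 in the control extracts. Both extracts of array 3 stood apart from the remaining 6, and in neither group did a second extract come near them. The same pattern was shared by 79 probes (0.2%). Among them was Dbh, which converts dopamine to noradrenaline, at 28468 in the control extract and 2925 in the DEP extract of array 3. Slc10a4 was at 673 and Hand1 at 350 in the control extract of that array, the first a vesicle protein of cholinergic and monoaminergic neurons and the second a transcription factor. On array 3, 70 of the 79 probes differed less than 2-fold between the channels, and Dbh, whose log2 ratio there was -3.28, did not.

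Genes of noradrenergic cells, and some but not all genes of the pituitary, were also high in the control extract of array 3. In that extract Th, the rate-limiting enzyme of catecholamine synthesis, was at 21460.3, against 481 to 1566 in the other control extracts and 469 to 1914 in the DEP extracts. Slc6a2, the noradrenaline transporter, was at 8604 there and at 65.3 to 297 in the other 7 extracts, with 192 in the DEP extract of array 3. Within the DEP group, Th was also highest on array 3. Of 9 pituitary genes, 3 to 7 were well above background in each control extract and 5 to 7 in each DEP extract. Their summed signal was 51177 in the control extract of array 3, 440 to 4879 in the other control extracts, 2707 in the DEP extract of array 3 and 1401 to 27160 in the other DEP extracts. Prl, the prolactin of the lactotrophs, was at 30278 in the control extract of array 3 and at 628 in the DEP extract of that array. Pomc, the corticotropin precursor, did not follow, at 1289 in the control extract of array 3, 2011 and 2036 in those of arrays 1 and 2, and 8752 and 18329 in the DEP extracts of arrays 1 and 2. Lhb, a gonadotropin subunit, was at 205 in the control extract of array 3 and at 241 in that of array 2. Drd2 was not well above background in the DEP extracts of arrays 1 and 2, where Prl was at 9820.5 and 4588. Ghrhr, the receptor of somatotrophs, was not well above background in any extract. The part of these cells in the Drd2 signal was not tested.

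**Figure D2:**
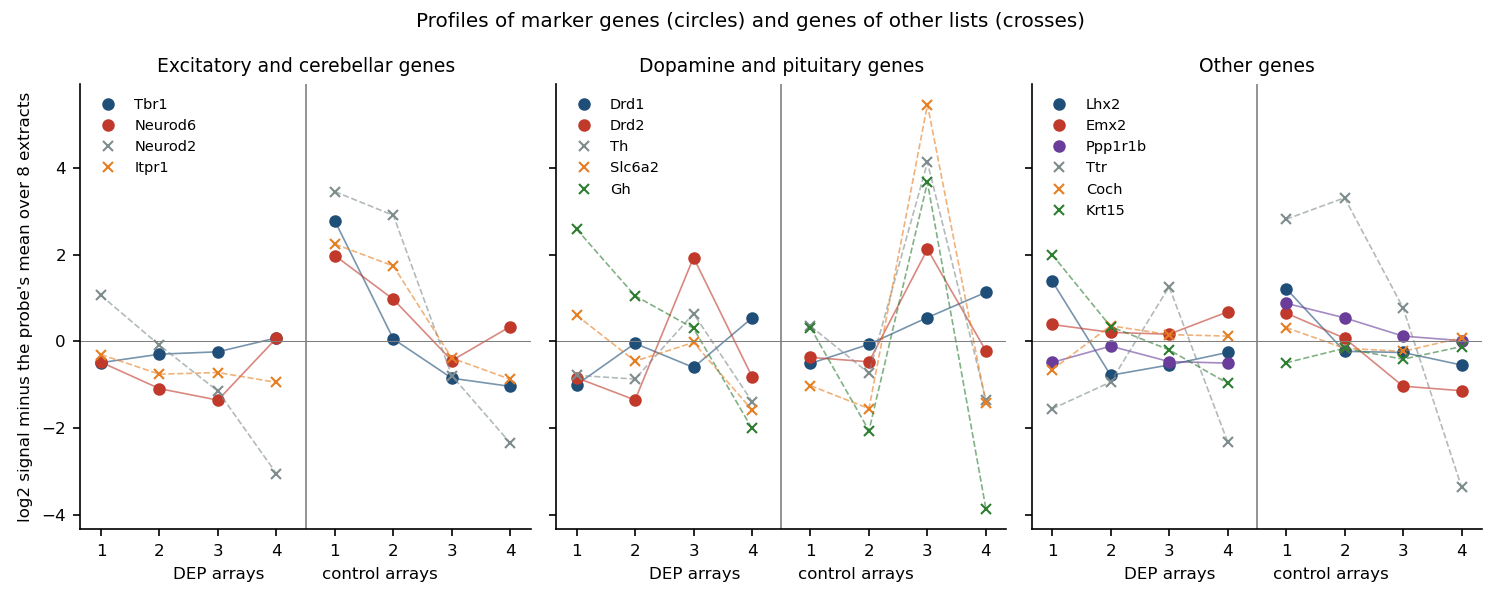
Log2 signal of marker genes (circles) and of genes from other lists (crosses) in each extract, relative to the mean of that probe over 8 extracts; DEP extracts of arrays 1 to 4 are on the left of each panel and control extracts on the right. Neurod2 and Itpr1 are highest in the control extracts of arrays 1 and 2, with Tbr1 high in the first of these, and Th, Slc6a2 and Gh peak with Drd2 in the control extract of array 3. Drd2 is also high in the DEP extract of array 3, where Th, Slc6a2 and Gh are far below that peak.

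The question of the array comparison was which transcripts differed between the ears of DEP-exposed and control mice. For each probe the log2 ratio of DEP over control on 4 arrays was set against 0 in limma (moderated, two-sided), and p-values were adjusted by Benjamini-Hochberg over the 31577 probes that had a ratio on at least 3 arrays. The sign follows the source names in the labels, and for neuronal genes it is opposite to that of the study. If the channels were the other way round, DEP and control would be exchanged in every signal, ratio and count given here. A probe for which the software gave no ratio on an array has fewer values. Nothing in the sources says whether each extract came from separate mice, so the p-values measure the spread between these arrays, and for 4 ratios an exact sign-flip test reaches no p below 0.125. In bulk extracts, fewer cells of a type and less RNA per cell cannot be told apart. The arrays themselves differed, with Pearson's r over probes, which are not replicates, between -0.22 (arrays 1 and 4) and 0.61 (arrays 1 and 2).

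Of the 8 marker probes tested, 0 had an adjusted p under 0.05, as did 0 of all probes tested (0%), and the smallest adjusted p of any probe was 0.0922. Before adjustment 4 marker probes had a p under 0.05 and a mean below 0 (Ppp1r1b, Drd2, Neurod6 and Drd1), against 8.96% of all probes in that direction, and 0 had one with a mean above 0, against 9.6%. The 4 became 2 without array 1, 2 or 4, with normexp and loess or with ordinary least squares, and 1 with either filter on dim probes. The mean lay below 0 for 7 of 8 probes, where 46.9% of all probes did, and the median over the 8 was -0.50 against 0.02 over all probes tested. A mean past 2-fold lower was reached by Neurod6 alone (4.47% of all probes), and none was past 2-fold higher (2.22%). Since 6 of the 8 tested probes were not well above background in most extracts, these counts rest largely on dim readings.

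**Figure D3:**
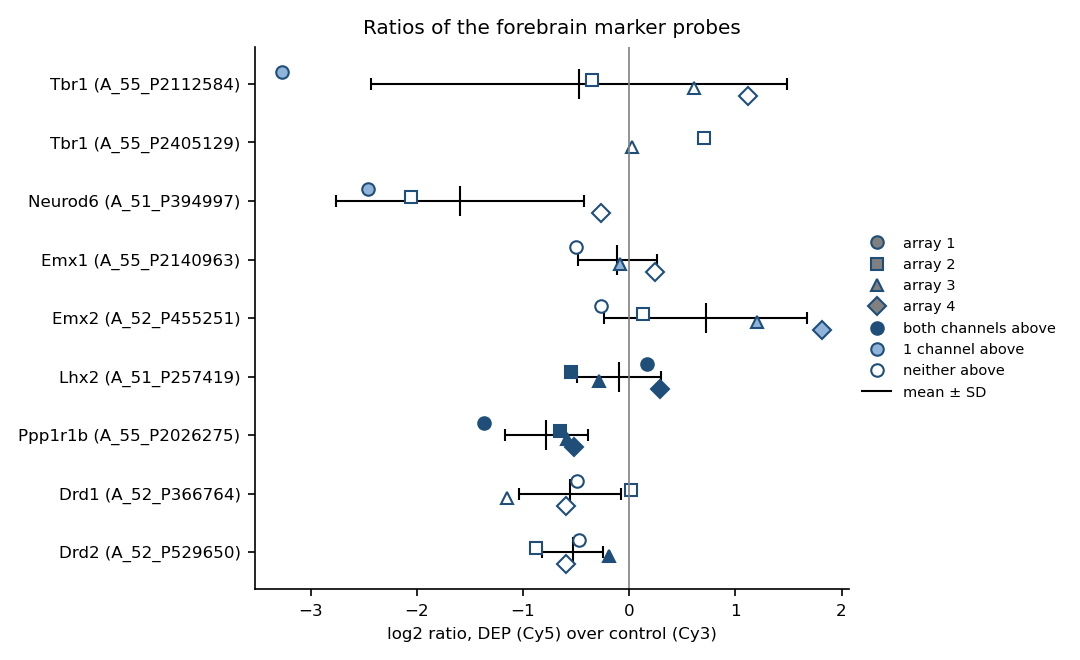
Log2 ratio of DEP over control for each marker probe on arrays 1 to 4 (marker shape), with fill showing whether both, 1 or neither channel was well above background, and the mean ± SD where at least 3 arrays gave a ratio. Ppp1r1b lies below 0 on all 4 arrays with both channels above background, and the ratios of Tbr1 spread from -3.27 to 1.12.

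Ppp1r1b had log2 ratios of -1.36, -0.65, -0.59 and -0.52 on arrays 1 to 4, below 0 on all 4, and array 1 lay apart from the other 3. The mean was -0.78 ± 0.39 (SD, n = 4 arrays; standard error 0.18), a 1.72-fold lower level in DEP extracts. The unadjusted p was 0.00767 and the adjusted p = 0.160 from limma, so it did not pass. After normexp background correction and median centring of each array, the mean was -0.29. Across the alternatives the adjusted p ranged from 0.160 to 0.414. Choroid plexus genes, of which 5 or 6 of 6 were well above background in each extract, had a summed signal of 17797, 24344, 5491 and 1967 in the control extracts of arrays 1 to 4 and of 1995, 3289, 6952 and 2109 in the DEP extracts. Ttr, the transthyretin that this epithelium secretes, was at 15547 and 21921 in the control extracts of arrays 1 and 2 and at 215.2 in that of array 4. The list's median log2 ratio was -1.11, -0.91, -0.07 and 0.14 on arrays 1 to 4. The part of this tissue in the Ppp1r1b ratio was not tested.

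Lhx2, the other marker measured in every extract, had ratios of 0.17, -0.55, -0.29 and 0.29, which fell on both sides of 0. Its mean of -0.09 ± 0.39 (SD, n = 4 arrays) was smaller than the spread between arrays (adjusted p = 0.794, limma), and its sign changed to 0.06 without array 2.

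Drd2 was below 0 on all 4 arrays, at -0.47, -0.88, -0.19 and -0.59, but the readings were well above background on array 3 alone, where the ratio was nearest to 0. The mean was -0.53 ± 0.29 (SD, n = 4 arrays) with an adjusted p = 0.189 from limma, and it became -0.09 with normexp and loess and -0.18 with normexp and median centring. Drd1 gave -0.49, 0.02, -1.15 and -0.59, and its mean of -0.55 ± 0.48 (SD, n = 4 arrays; adjusted p = 0.263, limma) became -0.13 with loess, -0.30 with median centring and -0.36 without array 3. With neither channel well above background on any array, no fold can be given for Drd1.

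Neurod6 had ratios of -2.46, -2.06 and -0.27 on arrays 1, 2 and 4 and none on array 3. Its mean was -1.60 ± 1.17 (SD, n = 3 arrays), with an unadjusted p of 0.0321 and an adjusted p = 0.236 from limma. On array 1, where the control channel alone was well above background, an approximate lower bound put the control extract 1.24-fold higher. After normexp and median centring, Neurod6 had a mean of -0.40 and an adjusted p of 0.0367 (with loess, -0.21 and 0.289), the single marker to pass under any alternative tried; 1.54% of all probes were called lower and 8.88% higher under that setting.

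Tbr1 had ratios of -3.27, -0.35, 0.61 and 1.12 with its brighter probe. The mean of -0.47 ± 1.96 (SD, n = 4 arrays) was smaller than its spread (adjusted p = 0.755, limma) and became 0.46 without array 1, -0.83 without array 3, -1.003 without array 4 and -0.20 with normexp and loess. On array 1 an approximate lower bound put the control extract 3.46-fold higher, from a single array without a test. The other Tbr1 probe had ratios on arrays 2 and 3 only, 0.71 and 0.02, and was not tested.

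Emx2 had ratios of -0.26, 0.13, 1.20 and 1.82 and a mean of 0.72 ± 0.96 (SD, n = 4 arrays; adjusted p = 0.365, limma). The mean became 0.36 without array 4, 0.17 with normexp and loess, and -0.015 with normexp and median centring, so its direction was not kept. The DEP signals of arrays 3 and 4 did not exceed the lowest reliable control signal there, so no fold is given. Emx1 had ratios of -0.50, -0.08 and 0.24 on arrays 1, 3 and 4, with a mean of -0.11 ± 0.37 (SD, n = 3 arrays; adjusted p = 0.774, limma) that became 0.079 without array 1 and -0.25 with normexp and median centring. Array by array, markers past 2-fold lower numbered 3, 1, 1 and 0, against 9.78%, 7.07%, 5.7% and 5.85% of all probes, and markers past 2-fold higher numbered 0, 0, 1 and 2, against 8.4%, 3.39%, 4.99% and 4.29%. The 3 on array 1 were Tbr1, Neurod6 and Ppp1r1b.

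Other genes of the same regions were read from fixed lists, each gene by its brightest probe, with no test of the list. Among all 17949 genes tested, 7.48% had an unadjusted p under 0.05 with a mean below 0 and 9.19% with a mean above 0, and no gene of any list had an adjusted p under 0.05. In the list for cortical and pallial projection neurons, 8 of 12 genes were measured in both channels of every array, where 68.1% of all named genes were. Of 11 tested, 4 had an unadjusted p under 0.05 with a mean below 0 and 0 with a mean above 0. The mean was below 0 for 9 of the 11, where it was for 44.7% of all genes. The median log2 ratio of this list was -1.36, -0.61, -0.05 and -0.20 on arrays 1 to 4, against 0.04 for the means of all genes, and the median of the means was -0.73. It became -0.35 without array 2, -0.21 after loess and -0.28 after median centring, both with normexp, and -0.23 or -0.14 with 1 or both channels required above background. Its genes Neurod1, Neurod2, Slc17a7 and Eomes are also found in cerebellar granule or unipolar brush cells. Neurod2 was at 2754, 1884, 145 and 49.4 in the control extracts and at 524, 237, 113 and 30.4 in the DEP extracts (mean log2 ratio -1.61 ± 1.28, SD, n = 4 arrays; adjusted p = 0.218, limma). Slc17a7, a vesicular glutamate transporter, was at 417 and 292 in the control extracts of arrays 1 and 2 and at 28.3 and 36.8 in those of arrays 3 and 4. The levels of both genes were thus highest in the control extracts of arrays 1 and 2. Fezf2, a factor of subcerebral projection neurons, was not well above background anywhere. Nrgn, a calmodulin-binding protein of forebrain synapses, did not follow this pattern, with signals from 612 to 763 in the DEP extracts and from 622 to 891 in the control extracts. Fezf2, Slc17a7, Neurod1 and Eomes were named after their values were seen.

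The list of pallial patterning and partner factors, which holds the cofactors Ldb1, Ldb2 and Lmo4 of LIM-homeobox proteins such as Lhx2, had 1 of 11 tested genes with an unadjusted p under 0.05 and a mean below 0, and a median of -0.03, whose sign changed under several alternatives, as with array 1 left out (0.02) or both channels required above background (0.06). Lmo4 lay between 10029 and 13605 in the DEP extracts and between 8196 and 12215 in the control extracts, with 0.28 ± 0.25 as the mean log2 ratio (SD, n = 4 arrays; adjusted p = 0.346, limma). Nr2f1, an orphan receptor that sets cortical areas, lay between 2464 and 2890 in the DEP extracts and between 2252 and 6631 in the control extracts (mean log2 ratio -0.54 ± 0.65, SD, n = 4 arrays; adjusted p = 0.348, limma). Both were measured in all extracts with overlapping groups. Pax6, which is found in cortical progenitors and in cerebellar granule cells, was well above background in the control extracts of arrays 1 and 2 alone, at 154 and 102.

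In the striatum and subpallium list, 1 of 14 tested genes had an unadjusted p under 0.05 with a mean below 0 and 2 with a mean above 0, and the median was -0.17 and -0.04 without array 1. Among 12 genes of dopamine synthesis, transport and signalling, 11 were tested, of which 3 had an unadjusted p under 0.05, all with a mean below 0. These were Pde1b, Drd3 and Drd4, the last 2 at the edge of detection. The median of -0.87 became -0.44 without array 3, -0.56 without array 1, -0.40 with loess and -0.41 with median centring. Pde1b, a phosphodiesterase that striatal neurons use, averaged -0.42 ± 0.20 in log2 ratio (SD, n = 4 arrays; adjusted p = 0.201, limma) and was lower in DEP on 4 of 4 arrays. The other dopamine receptors were at the edge of detection. Drd3 and Drd5 were not well above background anywhere, and Drd4 was so in the control extracts of arrays 1 and 2 and the DEP extract of array 4. In the list for diencephalon and hypothalamus, 3 of 9 genes were not well above background anywhere and 2 were measured in all extracts. Oxt, the oxytocin precursor, was one of these, at 2715 in the DEP extract of array 1 and at 70.7 to 243 in the other 7.

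**Figure D4:**
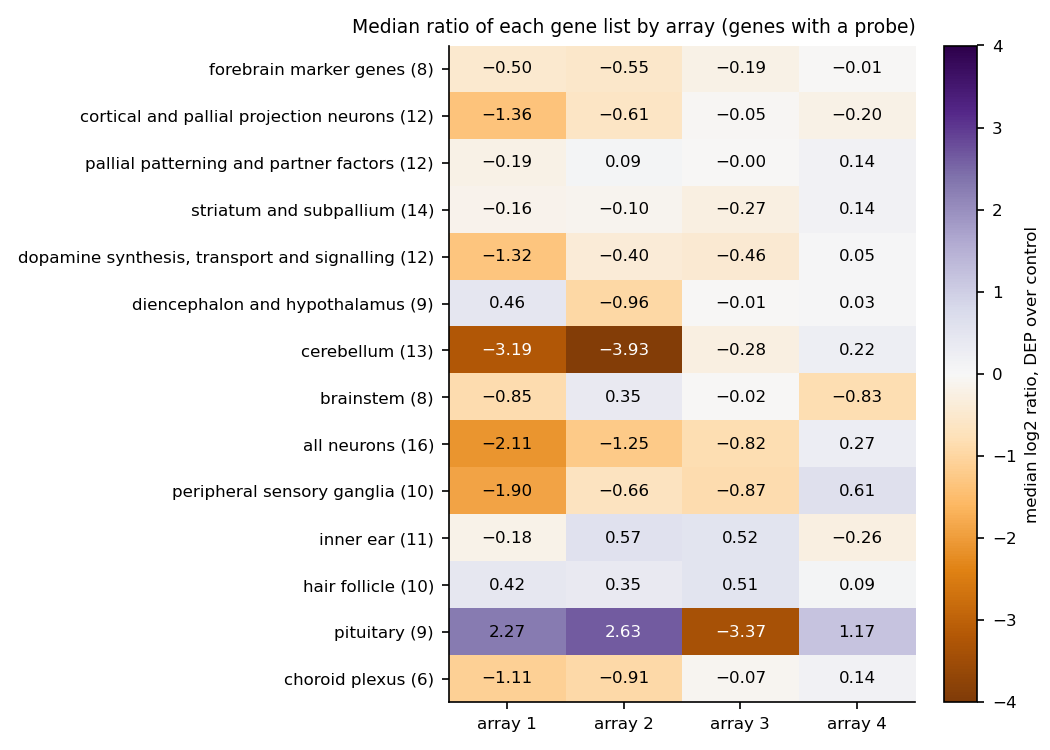
Median log2 ratio of DEP over control on each array for the 8 forebrain markers and 13 other gene lists, with the number of genes that have a probe in brackets and colour on a scale from -4 to 4. The cerebellum list is lowest on arrays 1 and 2 (-3.19 and -3.93), where the forebrain markers are at -0.50 and -0.55.

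Cerebellar genes were highest in the control extracts of arrays 1 and 2, the first of which is the extract in which Tbr1 and Neurod6 were well above background. Of 13 cerebellar genes, 13 were well above background in the control extracts of arrays 1 and 2, 8 and 7 in those of arrays 3 and 4, and 7 to 10 in the DEP extracts. Their summed signal was 108349, 78617, 10689 and 6546 in the control extracts and 16931, 10646, 8834 and 7905 in the DEP extracts. Itpr1, the calcium release channel that is abundant in Purkinje cells, was at 30013, 21159, 4849 and 3456 in the control extracts and at 3288 to 5132 in the DEP extracts. Gabra6, a receptor subunit of granule cells, was at 5460.3, 3790.3, 136 and 7.85 in the control extracts; it was chosen after its values were seen. The list's median log2 ratio was -1.59, from -1.03 without array 2 to -2.50 without array 4, and 3 of 12 tested genes had an unadjusted p under 0.05 with a mean below 0. In the control extract of array 2 neither Tbr1 nor Neurod6 was well above background, though Neurod6 at 19.1 lay just under the lowest such signal there, 20.8. The part of cerebellar RNA in the Tbr1 and Neurod6 signals was not tested.

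Genes that all neurons use were measured in every extract, 16 of 16. Their summed signal ranged from 31503 to 51370 over the DEP extracts and from 37867 to 122578 over the control extracts, and 8 of 16 had an unadjusted p under 0.05 with a mean below 0, with a median of -0.96 that became -0.63 without array 1 and -0.56 with median centring. Snap25, a synaptic fusion protein, was at 6597 to 9447 in the DEP extracts and at 8912 to 22141 in the control extracts. Neuronal RNA was therefore present in all 8 extracts, including the 4 DEP extracts and 3 control extracts in which neither Tbr1 nor Neurod6 was well above background. For peripheral sensory ganglia, 7 of 10 genes were measured in both channels of every array, where 68.1% of all genes were, and the median of -0.92 became -0.28 without array 1, -0.36 with loess and -0.34 with median centring. Calca, the precursor of a sensory neuropeptide, was at 55.6 in the DEP extract of array 1 and at 2659 to 8979 in the other 7 extracts.

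The labelled tissue was checked with genes of the ear. Coch and Otof, an extracellular protein of the cochlea and a protein of hair cell synapses, were well above background in all 8 extracts, and 5 of 11 inner ear genes were so, where 68.1% of all named genes were. Tectb and Otog, tectorial and otolithic membrane proteins, were so in 7 and 8 extracts, while Slc26a5, the motor protein of outer hair cells, was not in any. Coch lay between 5904 and 11902 in the DEP extracts and between 7910 and 11569 in the control extracts, with the groups overlapping. Otof lay between 1073 and 1633 in the DEP extracts and between 969.5 and 1466 in the control extracts. The inner ear list had a median log2 ratio of 0.04, between -0.12 and 0.24 with an array left out, and 1 of 10 tested genes had an unadjusted p under 0.05 with a mean above 0.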

How the data were processed

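Each of 4 two-colour arrays compared a DEP ear in Cy5 with a control ear in Cy3, giving 4 replicates of a single comparison. The authors quantified the spots with Agilent Feature Extraction 10.10.1.1. The deposited processed signals are intensities, background-subtracted, detrended across the slide and normalized for dye within each array. Ratios were deposited as log10 of Cy5 over Cy3 and were converted to log2 here. Other deposited columns are flags of 0 or 1. A table of the authors' log10 ratios, rounded to 3 significant digits, served as an alternative.

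Control spots, spots marked as non-uniform or as population outliers (164 to 274 of 43020 per array) and spots without a ratio (6179 to 8558) were left out, and repeated spots were averaged. The files hold no gene names, so accessions were matched to the RefSeq table of GRCm38.p6, which named 27655 of 39429 probes. That table also gave the promoters, whose build is not that of the array files, so no other coordinates were used. A window was found for 7 of the 8 genes, and Ppp1r1b was not among them. Signals of different probes were set against each other to pick the genes to name and each gene's probe, and in the lower bounds on a fold. They were also added up in the summed signals of the lists, where the brightest probes weigh most. They do not rank the levels of different transcripts. An intercept was fitted with lmFit and eBayes in limma 3.58.1 under R 4.3.3 (prior degrees of freedom 1.98). Summaries used pandas 2.3.3 and numpy 2.4.6 in Python 3.11.15, and plots used matplotlib 3.10.9. A lower bound on a fold set the brighter channel against the lowest signal well above background in the dimmer one, and it is open to dye bias. It is approximate, because that lowest signal came from any probe and a brighter reading can lack the flag. Emx2 did so at 29.5 in the control extract of array 1, where the lowest was 23.3.

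On simulated ratios for this comparison, with 200 of 31577 probes changed, 88 probes were called and 5 of them were false. For a log2 change of 2 it found 54 of 100 probes, and for a log2 change of 1 it found 29 of 100. The number of arrays and the signal over background limit the precision.

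The markers and the lists were chosen with earlier results of these data known. Named genes were every marker and, in each of 13 lists, the 2 brightest genes measured in both channels of every array. Genes outside that rule were chosen after their values were seen. A search for genes with similar ratios was set for markers measured on all arrays with a range of ratios of at least 1, and no marker met it. The 13 alternatives were normexp background correction (offset 50, on median signals because the files hold no means) with loess or with median centring, the deposited ratio table, 2 filters on dim probes, keeping marked spots, an intensity trend, ordinary least squares, the mean of a gene's probes, and leaving out each array. Another detection flag was tried for the signals. There were 0 columns of values without a sample.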

Additional observations from a re-analysis of the deposited data

Results flagged for a closer look

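The search covered 37 sets of 4 values. These were the marker signals per group, the marker ratios where all 4 arrays gave one, and the median ratios of the 13 other lists. In 5 sets 1 array lay far from the other 3, beyond Dixon's critical value for 4 values. The measure was the gap to the nearest value divided by the whole range. All 5 were marker sets, so the share among marker sets alone is higher than 5 in 37. Chance gives about 1 in 20 such sets. For Ppp1r1b the quotient was 0.840 for the log2 ratio, where array 1 was lowest, and 0.910 for the DEP signal, where array 2 was highest. For Drd2 it was 0.836 for the DEP signal and 0.903 for the control signal, both from array 3. The dimmer Tbr1 probe gave 0.839 for the DEP signal, where array 4 was lowest and no reading was well above background.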

How the results depend on the processing

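No further paired analysis was added, because the ratio within an array already pairs its DEP and control extracts. The 13 alternatives left 86 of 92 mean ratios of markers with the same sign and call. The sign changed for Tbr1 without array 1 (0.46, range over arrays left out -1.003 to 0.46), for Emx1 without array 1 (0.079, range -0.29 to 0.079), for Lhx2 without array 2 (0.057, range -0.22 to 0.057) and with normexp and loess (0.0050), and for Emx2 with normexp and median centring (-0.015). Under median centring 1 marker, Neurod6, passed after adjustment (mean -0.40), and with an array left out 0 did. The 4 markers with an unadjusted p under 0.05 and a mean below 0 became 2 with loess, 1 with either filter on dim probes, which keep Lhx2 and Ppp1r1b alone, 2 with ordinary least squares and 2 to 3 with an array left out (2 without array 1, 2 or 4). The main setting put 2111 probes past 2-fold. This became 515 with loess, 677 with median centring, 947 with 1 channel and 678 with both channels required above background, and 1881 to 3316 with an array left out, highest without array 4. With an unadjusted p under 0.05 as well, 1411 probes became 274, 363, 491 and 327 in the same order, 789 with ordinary least squares, and 1225 to 2679 with an array left out. Marker probes detected in both channels on all arrays numbered 4 in place of 2 by the flag for positive and significant signal, which added the brighter Tbr1 probe and Drd2. Of 169 list medians under the alternatives, 165 moved by less than 1 SD between arrays, a wide margin that includes changes of sign. The exceptions were the cortical list with both channels required (-0.14) and the hair follicle list (0.01 with median centring, 0.59 with either filter). The cause of these changes was not tested, except that filters test fewer probes. Where a marker was not well above background, its level is uncertain, and the level needed for that flag differs between extracts.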

Other observations

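Other lists gave values that the comparisons above did not use. In the brainstem list, 8 of 9 genes had a probe and 2 were measured in both channels of every array. Of 7 tested, 0 had an unadjusted p under 0.05 in limma's test. Hoxb5, which marks the hindbrain and the trunk, was at 412 and 263 in the control extracts of arrays 1 and 3, and at 448 in the DEP extract of array 3 against 9.99 to 47.1 in the other DEP extracts. Pmch, the precursor of a hypothalamic peptide, was well above background in 1 extract of 8, the control extract of array 2, at 578. Avp, the vasopressin precursor, was so in the DEP and control extracts of array 1 alone, at 124 and 41.8. These genes were chosen after their values were seen.

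The remaining lists, described without a test, had these median log2 ratios over their tested genes: -0.37 for diencephalon and hypothalamus, -0.77 for brainstem, 0.27 for hair follicle, 0.74 for pituitary and -0.61 for choroid plexus. Single arrays moved these: diencephalon became 0.17 without array 2, brainstem -1.34 without array 2, hair follicle 0.42 without array 2, pituitary 0.25 without array 2 and 2.35 without array 3, and choroid plexus -0.34 without array 1. With normexp and loess the medians were -0.059, -0.42, 0.13, 0.19 and -0.36 in the same order, and with median centring -0.24, -0.46, 0.013, 0.0043 and -0.37. With 1 channel required above background they were 0.18, -1.29, 0.59, 1.303 and -0.47. With an unadjusted p under 0.05, 1 of 6 diencephalic genes had a mean above 0, 0 of 9 hair follicle genes had either sign, 1 of 9 pituitary genes had a mean above 0 and 1 of 6 choroid plexus genes had a mean below 0. Tcf7l2, a thalamic transcription factor, was higher in the DEP extract on arrays 1 and 2 (0.46 and 0.45) and lower on arrays 3 and 4 (-1.23 and -1.18). Pomc, the precursor of corticotropin, ranged from 356 to 18329 over the DEP extracts and from 106 to 2036 over the control extracts. Gh, growth hormone, ranged from 265 to 6410.3 and from 73.1 to 13528. Hoxa2, a hindbrain factor, was at 51.2 to 59.0 in the DEP extracts and at 41.4 to 95.6 in the control extracts. Gdf10, a growth factor of Bergmann glia, was at 2041 to 2826 in the DEP extracts and 1566 to 3834 in the control extracts, and Lgr5, a follicle stem cell receptor, at 472 to 541 and 325 to 562. Clic6, a chloride channel protein of the choroid plexus, was at 740.2 to 1578 and 1116 to 1460.4. Nefh, a neurofilament chain, was at 4170.1 to 10951 and 6918 to 11884, and Prph, a filament of peripheral neurons, at 367 to 3192 and 2275 to 9585. Between DEP and control the ranges of each of these genes overlapped.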
